A study of Mus musculus with 9 samples.

Results

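The comparison described here set fracture callus from mice given the STING inhibitor H-151 against callus from mice given phosphate-buffered saline (PBS). It rests on 6 of the 9 libraries of the series, 3 in each group, which were taken by their group labels, and on all 22054 genes of the table. The mice were male C57BL/6J animals, 7 weeks of age in the labels, with a midshaft fracture of the left femur that was held by a needle in the marrow cavity. From the day after surgery the H-151 group received 750 nmol of the drug in 200 μl by daily injection into the peritoneum for 1 week, and the PBS group received the same volume of PBS. Callus, the repair tissue that bridges the break, was collected on day 7 for RNA-seq. No genetic change or other agent was named for either group, and callus is a mixture of cartilage, new bone, marrow, vessels and nearby muscle, so each value is an average over all of them. The other 3 libraries came from mice given SR-717, a STING agonist, and enter 1 alternative fit only. The labels call the tissue bone and number the biosamples without saying whether each came from its own mouse, so p-values measure only the spread between these libraries.

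STING is a membrane protein of the endoplasmic reticulum that relays the detection of DNA in the cytosol. The sensor cGAS is activated by DNA and makes the messenger cGAMP from ATP and GTP. cGAMP binds STING, which recruits the kinase TBK1. TBK1 phosphorylates the transcription factor IRF3 and so turns on type I interferon. NF-κB is a further branch of STING signalling. H-151 binds covalently to STING and blocks its activation. A callus of this age holds cartilage that is being replaced by bone, osteoclasts that resorb mineralized matrix, and marrow that re-forms between them. The question was therefore asked of 4 groups of programs: marrow lineages, fat, the interferon response and the skeleton. They were read through 28 gene lists holding 408 genes, of which 406 were in the table and 384 passed the filter on low counts.

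The libraries held 16987398 to 23272480 counts, and no pair of the 6 agreed within sampling noise. Levels are given as CPM, counts scaled to the same library total, which compare libraries and not genes of different length. In a principal component analysis PBS replicate 3 stood apart from the other 5 libraries on the first component, which held 44.9% of the variance, and PBS replicate 1 stood apart on the second, with 30.2%. The defining genes of bone were abundant in all 6 libraries, and Col1a1, the main collagen chain of bone, had 31809, 26596 and 32908 CPM in H-151 replicates 1, 2 and 3 and 27368, 36881 and 36879 CPM in PBS replicates 1, 2 and 3. Mature muscle genes took 1.95, 3.12 and 2.46% of counts in H-151 replicates 1, 2 and 3 and 2.06, 3.08 and 0.671% in PBS replicates 1, 2 and 3, so PBS replicate 3 held the least muscle RNA, and the skin keratins Krt5 and Krt14 stayed under 1 CPM in every library. Libraries with the same replicate number deviated from their group means together. Values from a model that includes this number as a block are therefore given beside those of the plain comparison, and the differences within the replicate 1, 2 and 3 pairs are called pair differences. Fold changes are log2 values of H-151 over PBS from edgeR. The standard error (SE) beside them was worked back, as the absolute fold change divided by the square root of the test's F statistic. Since the smallest adjusted p was 0.9999 without the block and 1 with it, genes are described by whether they passed an unadjusted threshold.

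No gene passed an adjusted p of 0.05 by edgeR's quasi-likelihood test. Of 14085 genes tested, 0 (0%) were called, with a smallest Benjamini-Hochberg adjusted p of 0.9999, and 91 had an unadjusted p under 0.05. At an unadjusted p under 0.05 with at least a 1.5-fold difference, called the unadjusted threshold from here on, 37 genes were higher (0.263%) and 23 lower (0.163%) with H-151. With the replicate block the edgeR count at an adjusted p of 0.05 was again 0, with 431 genes (3.06%) at an unadjusted p under 0.05, a smaller share than that p threshold itself, and 201 genes were higher (1.43%) and 61 lower (0.433%) at the unadjusted threshold. Of these, 34 of the 201 and 16 of the 61 were also past the threshold in the plain comparison. DESeq2 without the block called 0 genes at an adjusted p under 0.05 and 125 at an unadjusted one. DESeq2 with the block called 11 genes: the granulocyte genes Ngp, Fcnb, Mpo and Camp, the adipocyte genes Cfd and Adipoq, the erythroid gene Rhag, and Mup22, Itgb2l, Slfn14 and Slfn4, of which only Slfn4 was lower with H-151.

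PBS replicate 2 weighed more on these counts than any other library. Without PBS replicate 2, 482 genes were higher and 216 lower at the unadjusted threshold, against 75 and 40 without PBS replicate 1 and 58 and 95 without PBS replicate 3. Leaving out H-151 replicate 3 gave 64 and 35, leaving out H-151 replicate 2 gave 30 and 13, and leaving out H-151 replicate 1 gave 43 and 19. In none of these 6 fits did a gene pass an adjusted p of 0.05.

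**Figure D1:**
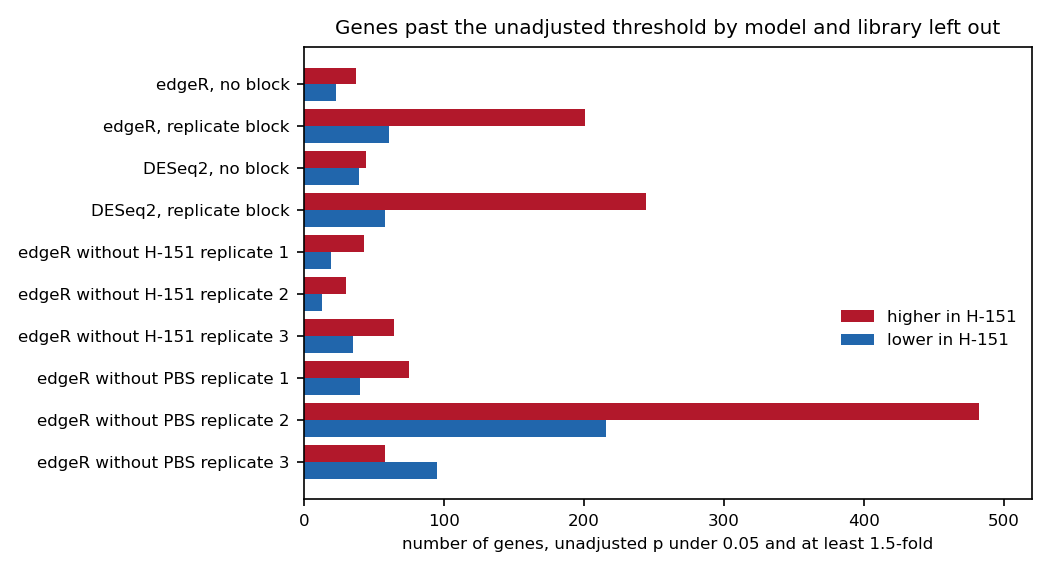
Number of genes past the unadjusted threshold (horizontal axis) in each model and with each library left out (rows). Red bars count genes higher and blue bars genes lower with H-151. The count of higher genes ran from 30 without H-151 replicate 2 to 482 without PBS replicate 2.

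The named genes of the drug's own pathway did not pass the unadjusted threshold. Sting1, which encodes STING, had 48.8, 42.5 and 30.5 CPM in H-151 replicates 1, 2 and 3 and 58.8, 36.98 and 32.1 CPM in PBS replicates 1, 2 and 3, with both groups spanning nearly the same range (log2 fold change -0.07 ± 0.28 (SE), edgeR). Cgas, the DNA sensor, had 3.38, 2.90 and 4.51 CPM with H-151 and 4.98, 2.70 and 2.56 CPM with PBS (log2 fold change 0.08 ± 0.35 (SE)). The kinase gene Tbk1 (log2 fold change -0.15 ± 0.21 (SE)) and the transcription factor gene Irf3 (log2 fold change -0.22 ± 0.15 (SE)) did not pass it either, and Irf3 was lower with H-151 within each of the 3 pairs, where 1616 of the 14085 genes (11.5%) were. Of the 10 core pathway genes tested, 8 had a fold change below 0, the median was -0.13, and none passed the unadjusted threshold in either model. Ifnb1, the gene for interferon beta, had no count in any library, which allows up to 3 counts per library.

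Of all tested genes, 222 (1.58%) lay wholly above and 321 (2.28%) wholly below PBS, and the 10 in each direction that combined this with the smallest p past the unadjusted threshold were mostly weakly expressed. Ccn3, a secreted matricellular protein of the CCN family, was the most abundant of the 20, with 104, 92.8 and 97.9 CPM in H-151 replicates 1, 2 and 3 and 50.9, 73.8 and 64.1 CPM in PBS replicates 1, 2 and 3 (log2 fold change 0.64 ± 0.16 (SE)). Spon2, a secreted matrix protein, had 39.8, 47.98 and 33.5 CPM with H-151 and 19.98, 28.8 and 28.5 CPM with PBS (log2 fold change 0.65 ± 0.21 (SE)), and Egr2, an immediate early transcription factor, had 8.16, 8.70 and 10.4 CPM with H-151 and 6.37, 5.19 and 4.61 CPM with PBS (log2 fold change 0.75 ± 0.22 (SE)). All 3 H-151 libraries exceeded all 3 PBS libraries for each of the 3 genes. Brca2, a DNA repair gene, had 8.01, 7.00 and 7.66 CPM with H-151 and 4.52, 5.44 and 4.90 CPM with PBS (log2 fold change 0.61 ± 0.20 (SE)). Chp2 had the smallest p of all, with 3.09, 3.35 and 2.87 CPM with H-151 and 1.33, 1.59 and 1.48 CPM with PBS (log2 fold change 1.08 ± 0.25 (SE)), and Rims4, Mettl11b, Fmo2, Rgs18 and Gm27021, all with means under 3 CPM, had log2 fold changes of 1.87, 1.73, 1.49, 1.23 and 1.41. Several of these calls rested on 1 library. Without PBS replicate 1 the log2 fold changes of Ccn3, Spon2 and Brca2 fell short of 1.5-fold, Spon2 and Gm27021 did not pass without H-151 replicate 2, and Brca2 did not pass without H-151 replicate 1.

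Among genes lower with H-151, Tubb3, a beta tubulin best known from neurons, had 9.46, 10.6 and 12.8 CPM in H-151 replicates 1, 2 and 3 and 16.6, 18.7 and 16.8 CPM in PBS replicates 1, 2 and 3 (log2 fold change -0.67 ± 0.18 (SE)). Banp, which encodes a nuclear matrix-associated protein, had 10.1, 8.55 and 11.4 CPM with H-151 and 13.8, 19.9 and 13.4 CPM with PBS (log2 fold change -0.65 ± 0.23 (SE)). Mmp10, a matrix metalloproteinase, had 1.39, 0.750 and 1.86 CPM with H-151 and 6.37, 2.14 and 3.87 CPM with PBS (log2 fold change -1.62 ± 0.51 (SE)) and passed with the block as well. Groups without overlap were a condition for choosing these genes, so their separation is not a further result. Foxf2, Cntnap1, Ccdc120, Lrrc3b, Ager and Rgs9, all with means under 5 CPM, had log2 fold changes of -0.63, -0.82, -0.64, -0.79, -1.18 and -1.64, and the pseudogene Styx-ps, whose reads may belong to its parent gene, had -2.83. With the block Foxf2 and Lrrc3b no longer passed. Foxf2 also lost its call without each library but PBS replicate 3, and Lrrc3b without each library but PBS replicates 1 and 3. Mmp10 and Ager did so without PBS replicate 1, Banp and Ccdc120 without PBS replicate 2 or H-151 replicate 1 or 2, and Cntnap1 and Ager without H-151 replicate 2. Tubb3 fell short of 1.5-fold without H-151 replicate 1.

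Among the marrow lineages the erythroid genes differed most in size. These genes, which serve red cell formation and are also carried by circulating young red cells, had a median log2 fold change of 1.13 over the 19 tested, against -0.02 over all genes tested, and 18 of them lay above 0. The alpha globin gene Hba-a1 had 1987, 3279 and 961 CPM in H-151 replicates 1, 2 and 3 and 96.1, 2542 and 308 CPM in PBS replicates 1, 2 and 3. The groups overlapped, since PBS replicate 2 was as rich in globin RNA as the H-151 libraries, whereas PBS replicates 1 and 3 were poor in it. Hba-a1 did not pass the unadjusted threshold in the plain comparison (log2 fold change 1.08 ± 1.105 (SE)) and passed it with the block (log2 fold change 2.05 ± 0.79 (SE)). Its near-identical copy Hba-a2 gave 2151, 3432 and 981 CPM with H-151 and 117, 2459 and 362 CPM with PBS and a blocked log2 fold change of 1.96, past the unadjusted threshold, and reads cannot be assigned to one or the other with certainty.

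Further erythroid genes, like Hba-a1, were low in PBS replicates 1 and 3. Beyond the first 2 genes of each list, the genes named here and below were chosen after their values were seen. Slc4a1, the band 3 anion exchanger of the red cell membrane, had 328, 490.1 and 68.3 CPM in H-151 replicates 1, 2 and 3 and 5.10, 310.2 and 5.12 CPM in PBS replicates 1, 2 and 3, with pair differences of 5.98, 0.66 and 3.71 on the log2 scale. Alas2, which starts haem synthesis in red cell precursors, had 129.9, 198 and 45.3 CPM with H-151 and 5.73, 132 and 13.6 CPM with PBS and passed with the block (log2 fold change 2.13 ± 0.75 (SE)). The transcription factor Gata1 had 8.81, 15.7 and 5.13 CPM with H-151 and 0.463, 15.2 and 0.911 CPM with PBS, and its pair difference in the replicate 2 pair was close to 0 (3.98, 0.05 and 2.37). Each of these 3 genes was lowest in PBS replicates 1 and 3.

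In the whole erythroid list no member passed the unadjusted threshold in the plain comparison, and 14 passed it as higher and 0 as lower with the block, against 1.43% of all genes. In 17 of 19 the H-151 library was the higher one in all 3 pairs, which held for 1431 of all genes tested (10.2%). Median pair differences were 4.20, 0.44 and 2.35. The blocked count was 6 without the replicate 1 pair, 17 without the replicate 2 pair and 10 without the replicate 3 pair. Counts without a pair, here and for the lists below, are given without the share of all genes passing in the same fit. They show how far a count depends on a pair and are not a result about a list. The plain median ran from 0.59 without PBS replicate 1 to 3.85 without PBS replicate 2. Summed erythroid counts made up 0.920, 1.54 and 0.426% of counts in H-151 replicates 1, 2 and 3 and 0.0865, 1.06 and 0.171% in PBS replicates 1, 2 and 3. In bulk tissue a higher share of cells of a type and more RNA per cell cannot be told apart. The transferrin receptor Tfrc, which many dividing cells also use, was the 1 member below 0, with 113, 91.4 and 278 CPM with H-151 and 255, 121 and 136 CPM with PBS.

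**Figure D2:**
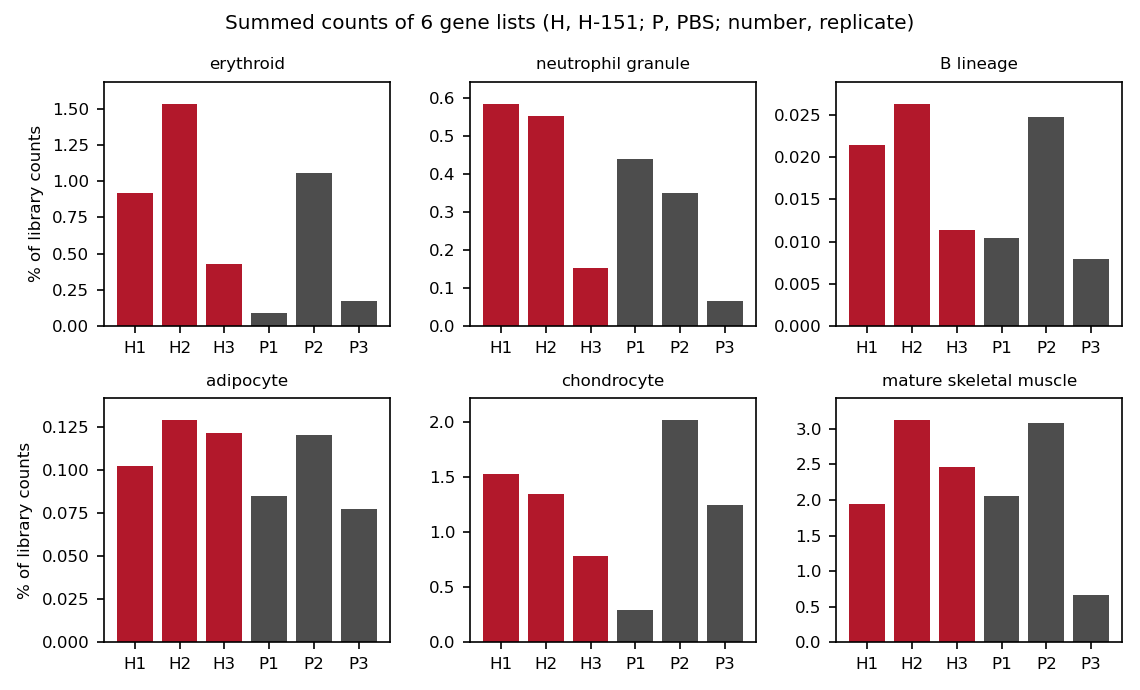
Summed counts of 6 gene lists as a percentage of each library's counts (vertical axes, each from 0) in the 3 H-151 (red) and 3 PBS (grey) libraries. PBS replicate 2 stands as high as the H-151 libraries for erythroid and B lineage genes, PBS replicate 1 is lowest for cartilage and PBS replicate 3 lowest for muscle.

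Granulocyte genes differed less in size but more evenly between pairs. The 19 neutrophil granule and marrow granulocyte genes had a median log2 fold change of 0.69, pair medians of 0.62, 0.61 and 1.17, and 14 members higher and 0 lower past the unadjusted threshold with the block, against 1.43% and 0.433% of all genes, where the plain comparison had none in either direction. In 15 of the 19 the H-151 library was higher in all 3 pairs, against 10.2% of all genes. Mpo, myeloperoxidase of the primary granules, had 254, 243 and 64.6 CPM in H-151 replicates 1, 2 and 3 and 111, 178 and 27.4 CPM in PBS replicates 1, 2 and 3. The H-151 library was higher in each pair, yet the groups overlapped, with both replicate 3 libraries low (log2 fold change 0.83 ± 0.73 (SE), with the block log2 fold change 0.96 ± 0.19 (SE)). Elane, neutrophil elastase, had 99.5, 102 and 27.8 CPM with H-151 and 44.5, 77.0 and 8.88 CPM with PBS (with the block, log2 fold change 1.05 ± 0.24 (SE)). Both are proteins made early, at the promyelocyte stage in marrow.

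Genes of later granules were also low in both replicate 3 libraries. Ngp, a secondary granule protein, had 1429.7, 1448 and 345 CPM in H-151 replicates 1, 2 and 3 and 779.8, 880.3 and 135 CPM in PBS replicates 1, 2 and 3 (with the block, log2 fold change 0.98 ± 0.18 (SE)). Fcnb, a ficolin made by marrow granulocytes, had 31.2, 35.2 and 8.11 CPM with H-151 and 13.5, 19.7 and 2.51 CPM with PBS (with the block, log2 fold change 1.21 ± 0.20 (SE)), and Retnlg had 132, 119 and 40.01 CPM with H-151 and 82.0, 81.2 and 23.97 CPM with PBS (with the block, log2 fold change 0.66 ± 0.11 (SE)). For all 3 genes the pairs differed in the same direction while the level differed several-fold between replicate numbers. The members that did not pass were Lcn2, S100a8, S100a9, Cxcr2 and Cebpe. Lcn2, which inflamed tissue also makes, had 296, 274 and 63.4 CPM with H-151 and 430.4, 175 and 30.7 CPM with PBS, and the chemokine receptor Cxcr2 of mature neutrophils had 19.4, 11.9 and 3.55 CPM with H-151 and 34.1, 8.18 and 1.77 CPM with PBS. Both were highest in PBS replicate 1, unlike Ngp, Fcnb and Retnlg. Summed counts of the list were 0.585, 0.552 and 0.152% of counts in H-151 replicates 1, 2 and 3 and 0.440, 0.349 and 0.0655% in PBS replicates 1, 2 and 3. The blocked count was 16, 11 and 12 without the replicate 1, 2 or 3 pair, again without the share of all genes.

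The promoter of Fcnb is shown because this gene had the smallest blocked p among the marrow genes with a RefSeq promoter. It spans chr2:28084829-28085128 on the minus strand of GRCm38.p6, from 250 bases before to 50 after the start. Capitals mark matches to the C/EBP motif TTGCNNAA on either strand, C/EBP factors being regulators of granulocyte genes. There were 2 matches, and neither overlapped a match to the other motifs searched.
Fcnb: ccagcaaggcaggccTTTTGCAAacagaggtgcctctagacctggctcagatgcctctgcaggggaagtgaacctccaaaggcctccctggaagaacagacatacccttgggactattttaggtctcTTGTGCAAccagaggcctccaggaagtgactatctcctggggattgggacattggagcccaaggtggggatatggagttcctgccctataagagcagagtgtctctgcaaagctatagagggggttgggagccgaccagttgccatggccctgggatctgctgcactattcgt
Over genes with a promoter listed, the motif was found for 9 of 18 granulocyte list genes (50%), against 12.2% of 27025 genes. Here and below a gene counted if the window at any of its listed starts held a match. The GATA motif AGATAA, read on both strands, was found for 4 of 13 erythroid genes (30.8%), against 12.7% of all genes with a promoter. These matches describe the letters of the window and are not evidence of binding.

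B lineage genes had mostly positive fold changes at far lower levels. Cd79a and Cd79b encode the signalling chains of the B cell receptor. Cd79a had 14.4, 21.1 and 7.10 CPM in H-151 replicates 1, 2 and 3 and 1.56, 15.3 and 2.73 CPM in PBS replicates 1, 2 and 3 (with the block, log2 fold change 1.57 ± 0.52 (SE)), and Cd79b had 10.8, 18.4 and 6.71 CPM with H-151 and 3.88, 13.3 and 3.64 CPM with PBS (with the block, log2 fold change 0.92 ± 0.25 (SE)). PBS replicate 2 again reached the H-151 range. Of 16 genes tested 3 passed the unadjusted threshold as higher with the block, Rag1 of the antigen receptor recombinase being the third, and none did without it, against 1.43% of all genes with the block and 0.263% without. In 11 the H-151 library was higher in all 3 pairs, against 10.2% of all genes. The plain median was 0.93 and the blocked median 1.37. Ms4a1, the B cell surface protein CD20, was the 1 member whose groups did not overlap (1.58% of all genes lay wholly above PBS), with 1.24, 1.0996 and 0.563 CPM with H-151 and 0, 0.514 and 0.456 CPM with PBS (log2 fold change 1.53 ± 0.83 (SE)). Cd72, an inhibitory receptor of B cells, was the 1 member with a fold change below 0, with 22.6, 14.7 and 16.8 CPM with H-151 and 43.7, 21.6 and 19.5 CPM with PBS. Without the replicate 2 pair 12 members passed as higher, a count given without the share of all genes in that fit and not a result about the list.

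Platelet genes had fold changes above 0 in 11 of 12, with a median of 0.74 (1.47 with the block) and pair medians of 2.59, -0.17 and 2.58. In 2 of the 12 the H-151 library was higher in all 3 pairs, against 10.2% of all genes. Pf4, a platelet chemokine that macrophages can also make, had 40.02, 40.4 and 24.6 CPM in H-151 replicates 1, 2 and 3 and 49.4, 35.8 and 16.97 CPM in PBS replicates 1, 2 and 3, with a plain log2 fold change 0.04 ± 0.39 (SE). Ppbp, another platelet chemokine, had 50.96, 54.7 and 27.2 CPM with H-151 and 7.18, 56.4 and 3.07 CPM with PBS and passed with the block (log2 fold change 1.91 ± 0.67 (SE)) although its replicate 2 pair was even. Itga2b and Clec1b also passed as higher with the block, making 3 of 12 against 1.43% of all genes. The count was 0 without the replicate 1 pair and 9 without the replicate 2 pair, again without the share of all genes. Selp, shared by platelets and activated endothelium and the 1 member below 0, had a plain log2 fold change -1.40 ± 1.03 (SE), with 48.5, 27.1 and 10.5 CPM with H-151 and 187, 30.9 and 10.9 CPM with PBS, so PBS replicate 1 lay far above the rest. The marrow stroma list had fold changes below 0 in 6 of 7 genes, with a median of -0.35 (-0.17 with the block), opposite in sign to the other marrow lists. Cxcl12, the chemokine that keeps blood stem cells in marrow, was close in all libraries, with 597, 631 and 644 CPM with H-151 and 564, 656 and 691 CPM with PBS (log2 fold change -0.03 ± 0.15 (SE)), and Lepr, the leptin receptor of stromal cells, was the 1 member to pass as lower with the block (0.433% of all genes), with 14.8, 12.6 and 36.1 CPM with H-151 and 19.8, 14.4 and 91.6 CPM with PBS.

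The adipocyte list did not move as one, and the 4 genes that passed the unadjusted threshold with the block were weakly expressed. The list had 25 genes tested of 29, a median log2 fold change of 0.33, 22 above 0, and 0 past the unadjusted threshold without the block. With it 4 passed as higher and 0 as lower, against 1.43% and 0.433% of all genes. In 12 genes the H-151 library was higher in all 3 pairs, against 10.2% of all genes. The pair medians were 0.37, 0.00 and 1.02, so that the replicate 2 pair was even over the list. Adipoq, the adipocyte hormone adiponectin, had 7.86, 20.1 and 7.89 CPM in H-151 replicates 1, 2 and 3 and 2.14, 8.23 and 3.53 CPM in PBS replicates 1, 2 and 3. Each H-151 library exceeded its PBS partner at least 2-fold, while H-151 replicates 1 and 3 lay just below PBS replicate 2 (log2 fold change 1.36 ± 0.59 (SE), with the block log2 fold change 1.43 ± 0.22 (SE)). Cfd, adipsin, had 16.8, 47.1 and 10.1 CPM with H-151 and 3.76, 20.2 and 3.02 CPM with PBS with pair differences of 2.13, 1.21 and 1.71 (log2 fold change 1.44 ± 0.87 (SE), with the block log2 fold change 1.68 ± 0.22 (SE)).

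The lipid droplet coat protein gene Plin1 had 2.34, 7.15 and 1.47 CPM in H-151 replicates 1, 2 and 3 and 0.579, 3.43 and 0.456 CPM in PBS replicates 1, 2 and 3 (with the block, log2 fold change 1.499 ± 0.32 (SE)), and Cidec, which enlarges lipid droplets, had 1.64, 4.65 and 0.902 CPM with H-151 and 0.174, 2.96 and 0.114 CPM with PBS (with the block, log2 fold change 1.76 ± 0.59 (SE)). These 4 genes were the ones that passed with the block, and for each of them the replicate 2 libraries were the richest in either group. Fabp4, a fatty acid carrier that endothelial cells and macrophages share, had 135, 144 and 180.2 CPM with H-151 and 132, 137 and 127 CPM with PBS (log2 fold change 0.21 ± 0.15 (SE)), and Pparg, the master regulator of fat cell formation that osteoclasts and macrophages also use, had 6.17, 5.80 and 6.48 CPM with H-151 and 4.11, 7.07 and 7.97 CPM with PBS (log2 fold change -0.06 ± 0.28 (SE)). The leptin and resistin genes Lep and Retn were too low to test, and Ucp1 of brown fat had no count in any library. List members that muscle also expresses differed most in the replicate 3 pair. Slc2a4, a glucose transporter, had pair differences of 0.71, -0.28 and 2.05 and Gpd1, a glycerol phosphate dehydrogenase, of -0.28, 0.00 and 2.01, beside pair medians of -0.07, -0.01 and 1.92 for mature muscle genes. The part of muscle and of marrow in the adipocyte list was not tested. Without the replicate 1, 2 or 3 pair, 3, 8 and 5 members passed with the block, again without the share of all genes.

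**Figure D3:**
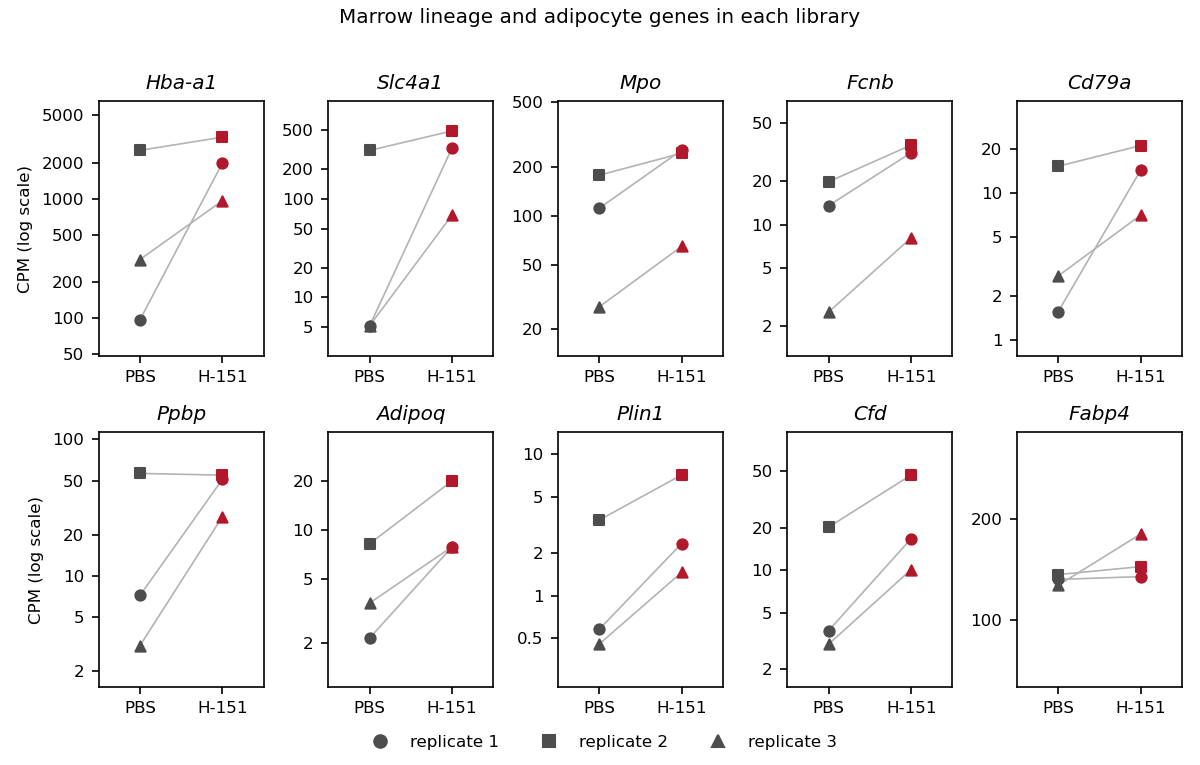
Levels in CPM of 10 marrow lineage and adipocyte genes (log axes), with PBS libraries in grey and H-151 libraries in red. Symbols give the replicate number and lines join libraries with the same number. Lines slope upward in all 3 pairs for every gene but Ppbp, whose replicate 2 pair is the exception, and the groups overlap for every gene. Some of these genes were chosen after their values were seen, so the slopes are not a result about the lists. Of all genes tested, 10.2% were higher in all 3 pairs.

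The promoter of Cfd, with the smallest blocked p among the fat genes, spans chr10:79890603-79890902 on the plus strand of GRCm38.p6 and held no match to the C/EBP motif, so no letter is in capitals.
Cfd: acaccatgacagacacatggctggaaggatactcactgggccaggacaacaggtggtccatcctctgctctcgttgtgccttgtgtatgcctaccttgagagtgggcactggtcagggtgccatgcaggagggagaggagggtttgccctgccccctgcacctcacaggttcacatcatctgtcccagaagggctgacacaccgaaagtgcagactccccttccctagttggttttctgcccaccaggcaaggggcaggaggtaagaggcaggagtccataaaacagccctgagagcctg
Of the 19 adipocyte list genes with a promoter 4 held the C/EBP motif (21.1%), against 12.2% of all genes with a promoter.

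The listed type I interferon-stimulated genes had fold changes below 0 in the plain comparison without passing a test, and 2 of the 3 pairs had medians below 0. All 31 type I interferon-stimulated genes tested had a fold change below 0, with a median of -0.35 and a range of -1.26 to -0.06, where 7865 of 14085 genes were below 0. None of the 31 passed the unadjusted threshold in either model, which says nothing of genes outside the list. Isg15, a ubiquitin-like modifier, had 22.4, 14.99 and 13.5 CPM in H-151 replicates 1, 2 and 3 and 30.8, 20.8 and 10.9 CPM in PBS replicates 1, 2 and 3 (log2 fold change -0.29 ± 0.39 (SE)), and Ifit1, which blocks translation of foreign RNA, had 4.03, 1.35 and 3.27 CPM with H-151 and 12.6, 1.93 and 1.42 CPM with PBS (log2 fold change -0.87 ± 0.87 (SE)). Both were higher in PBS in the replicate 1 and 2 pairs and higher in H-151 in the replicate 3 pair.

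The list as a whole had median pair differences of -0.46, -0.48 and 0.29. The median over the list was 0.08 without PBS replicate 1, so that its sign rests on that library, and 5 of 31 genes were lower in all 3 pairs, against 11.5% of all genes. Without the replicate 3 pair 14 members passed as lower with the block and without the replicate 1 or 2 pair 0 did. The share of all genes passing in these fits is not given here, so these counts are not a result about the list. Bst2, tetherin, which holds budding viruses at the cell surface, had 52.95, 36.8 and 40.6 CPM with H-151 and 67.7, 58.8 and 41.9 CPM with PBS, and Irf7, the amplifier of the interferon response, had 73.2, 38.5 and 25.1 CPM with H-151 and 98.0, 68.0 and 23.3 CPM with PBS. With the block the log2 fold changes were -0.36 for Bst2 and -0.39 for Irf7.

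The list of guanylate-binding proteins, immunity-related GTPases and other interferon gamma targets also had fold changes below 0 in all 18 genes. Its median was -0.33 (0.01 without PBS replicate 1), and of all genes tested 7865 of 14085 were below 0. The guanylate-binding proteins and immunity-related GTPases are induced by interferon gamma and attack the membranes around intracellular microbes. Gbp2 had 25.6, 15.8 and 16.7 CPM with H-151 and 44.6, 21.2 and 15.03 CPM with PBS (log2 fold change -0.48 ± 0.42 (SE)). Gbp3 had 9.95, 5.10 and 11.5 CPM in H-151 replicates 1, 2 and 3 and 15.9, 7.76 and 21.2 CPM in PBS replicates 1, 2 and 3, and was lower with H-151 in each pair. It was the 1 member to pass with the block, where 0.433% of all genes passed as lower (log2 fold change -0.72 ± 0.17 (SE)), and none passed without it (log2 fold change -0.76 ± 0.44 (SE)). Tgtp2, with 3.68, 6.35 and 5.92 CPM with H-151 and 9.09, 6.68 and 9.34 CPM with PBS, and Socs1, a feedback inhibitor of cytokine signalling, with 15.1, 14.2 and 13.3 CPM with H-151 and 17.3, 15.8 and 15.2 CPM with PBS, were the 2 members whose groups did not overlap, where 2.28% of all genes lay wholly below PBS, and neither passed (log2 fold change -0.65 ± 0.28 (SE) for Tgtp2 and log2 fold change -0.18 ± 0.15 (SE) for Socs1). Reads of Tgtp2 may be shared with its copy Tgtp1. In 7 of the 18 genes the H-151 library was lower in all 3 pairs, against 11.5% of all genes.

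The promoter of Gbp3, the interferon program gene with the smallest blocked p, spans chr3:142559794-142560093 on the plus strand of GRCm38.p6, at the first of 2 starts listed. Capitals mark matches to the core of the interferon response element, GAAANNGAA, on either strand. The 2 matches overlap each other and no other motif searched.
Gbp3: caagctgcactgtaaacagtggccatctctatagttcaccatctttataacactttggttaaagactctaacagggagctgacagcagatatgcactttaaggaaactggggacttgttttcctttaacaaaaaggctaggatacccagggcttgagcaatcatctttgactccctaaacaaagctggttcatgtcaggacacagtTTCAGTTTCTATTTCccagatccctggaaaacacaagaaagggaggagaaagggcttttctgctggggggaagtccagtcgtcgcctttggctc
This core was found for 11 of 12 genes of the list with a promoter (91.7%) and 14 of 21 of the type I list (66.7%). Of all genes with a promoter 9.76% held it.

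MHC class I and peptide loading genes, which show cell contents to T cells, had smaller fold changes of the same sign. H2-K1 had 481, 328 and 309.5 CPM in H-151 replicates 1, 2 and 3 and 603, 508 and 299 CPM in PBS replicates 1, 2 and 3 (log2 fold change -0.33 ± 0.30 (SE)) and H2-D1 had 887, 656 and 662 CPM with H-151 and 1101, 909.5 and 590.1 CPM with PBS (log2 fold change -0.24 ± 0.27 (SE)), and near-identical class I genes may share reads. The median over 14 genes was -0.24, all lay below 0, pair medians were -0.32, -0.46 and 0.12, and none passed the unadjusted threshold in either model. The replicate 3 pair again went against the other two.

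Inflammatory cytokine and NF-κB genes had the lowest median of the 28 lists, -1.15 over 19 genes, and it rested on PBS replicate 1. Il1b, the gene for interleukin 1 beta, had 50.6, 18.6 and 6.20 CPM in H-151 replicates 1, 2 and 3 and 195, 8.57 and 4.21 CPM in PBS replicates 1, 2 and 3, and Tnf had 3.98, 2.25 and 2.31 CPM with H-151 and 19.8, 3.39 and 2.16 CPM with PBS. Both were highest in PBS replicate 1, next highest in H-151 replicate 1 and low in all other libraries. Their plain values were log2 fold change -1.46 ± 1.42 (SE) for Il1b and log2 fold change -1.56 ± 0.83 (SE) for Tnf. The neutrophil-attracting chemokine Cxcl1 reached 2.79, 4.65 and 0.902 CPM with H-151 and 38.2, 0.557 and 0.740 CPM with PBS. The blocked median was -0.44. Pair medians for the list were -1.95, -0.08 and -0.02, and without PBS replicate 1 its median was 0.27. Ccl4 alone passed with the block, as lower (log2 fold change -1.29 ± 0.45 (SE)), and no member passed without it. With the replicate 1 pair left out Il1b was higher with H-151 (log2 fold change 0.88 with the block, at an unadjusted p under 0.05), with 18.6 and 6.20 CPM against 8.57 and 4.21 CPM. Nfkb1, a subunit gene of NF-κB, had 69.3, 63.9 and 50.2 CPM with H-151 and 74.0, 67.5 and 54.8 CPM with PBS (log2 fold change -0.10 ± 0.18 (SE)). Rela, its transactivating partner, had 73.0, 72.6 and 68.7 CPM with H-151 and 91.1, 97.8 and 63.1 CPM with PBS (log2 fold change -0.23 ± 0.18 (SE)).

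**Figure D4:**
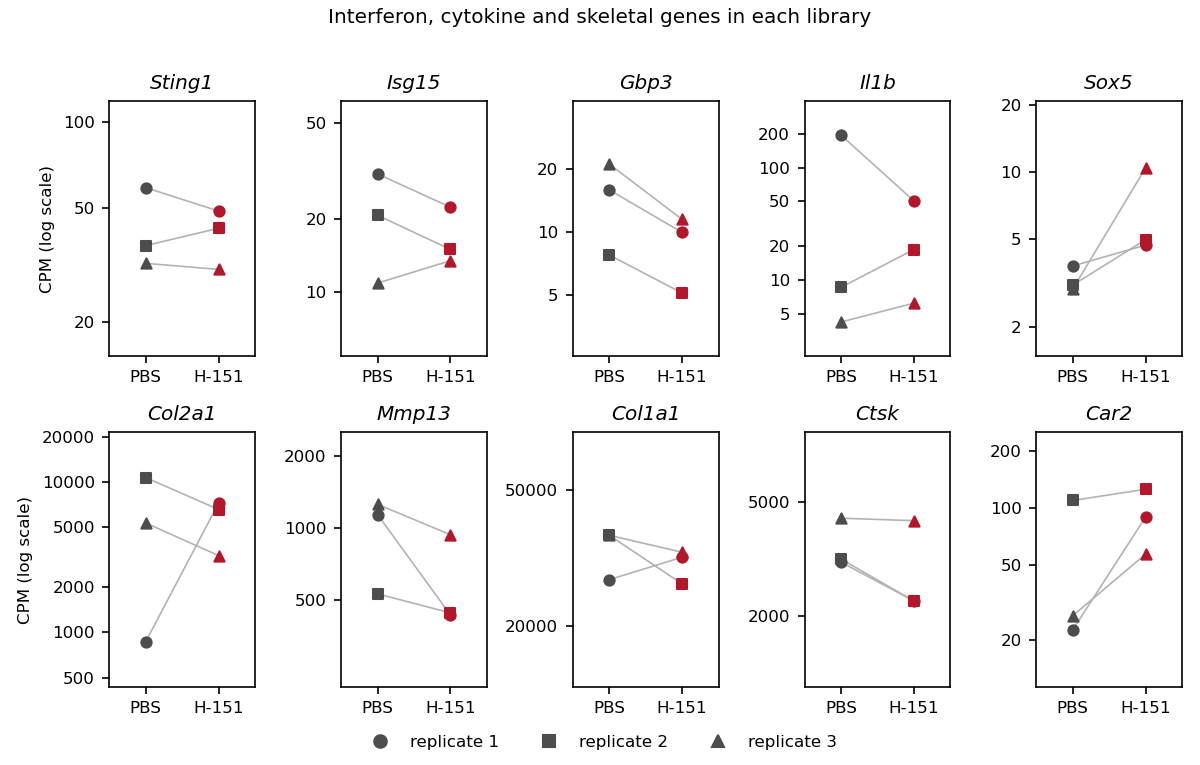
Levels in CPM of 10 genes of the interferon, cytokine and skeletal programs (log axes) in PBS (grey) and H-151 (red) libraries, with lines joining libraries of the same replicate number. Gbp3 and Mmp13 are lower with H-151 in all 3 pairs, Sox5 and Car2 are higher in all 3, and the replicate 1 pair of Il1b and Col2a1 slopes against the other pairs, with PBS replicate 1 at 195 CPM for Il1b and 869.8 CPM for Col2a1.

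Cartilage genes had a median near 0 in the plain comparison and above 0 with the block, and 1 regulator passed the unadjusted threshold. Col2a1, the main cartilage collagen, had 7249.9, 6571 and 3244 CPM in H-151 replicates 1, 2 and 3 and 869.8, 10711 and 5345 CPM in PBS replicates 1, 2 and 3, and Acan, the cartilage proteoglycan aggrecan, had 1460.2, 1273 and 559 CPM with H-151 and 272, 1539 and 970.0 CPM with PBS. PBS replicate 1 held far less cartilage RNA than any other library, and pair differences were 3.06, -0.70 and -0.72 for Col2a1 with a plain log2 fold change 0.01 ± 0.79 (SE). The 18 chondrocyte genes had a median of 0.02 with 10 above 0, and of 0.38 with 17 above 0 in the blocked fit. Pair medians were 2.41, -0.34 and -0.77, above 0 in the replicate 1 pair only, with summed counts of 1.53, 1.35 and 0.781% of counts in H-151 replicates 1, 2 and 3 and 0.299, 2.02 and 1.24% in PBS replicates 1, 2 and 3. Without PBS replicate 1 the chondrocyte median was -0.46, and without PBS replicate 2 it was 0.69.

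Sox5, a partner of SOX9 in chondrocyte formation, was the 1 cartilage gene past the unadjusted threshold in both models. It had 4.68, 4.95 and 10.4 CPM in H-151 replicates 1, 2 and 3 and 3.76, 3.09 and 2.96 CPM in PBS replicates 1, 2 and 3, with all H-151 libraries above all PBS libraries and H-151 replicate 3 the highest (log2 fold change 1.03 ± 0.37 (SE), with the block log2 fold change 0.93 ± 0.34 (SE)). Its related partner Sox6 had 28.7, 36.04 and 25.1 CPM with H-151 and 17.1, 29.2 and 17.2 CPM with PBS (log2 fold change 0.50 ± 0.26 (SE), with the block log2 fold change 0.53 ± 0.14 (SE), short of 1.5-fold), and Sox9 had 34.9, 38.8 and 18.6 CPM with H-151 and 22.8, 33.8 and 32.7 CPM with PBS (log2 fold change 0.05 ± 0.30 (SE)). The Sox5 call rested on single libraries. Without H-151 replicate 3 its log2 fold change was 0.56, without PBS replicate 2 it was 1.00 and without PBS replicate 3 it was 0.96, and it passed in none of these 3 fits.

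Hypertrophic cartilage genes, expressed where cartilage is being turned into bone, had a median of -0.25 over 7 genes (-0.02 with the block). Col10a1, the collagen of hypertrophic chondrocytes, had 1644, 1321 and 1021 CPM in H-151 replicates 1, 2 and 3 and 173, 2394 and 2283 CPM in PBS replicates 1, 2 and 3 (log2 fold change -0.28 ± 0.81 (SE)), and Ihh, the signal that paces their maturation, had 28.8, 33.8 and 16.7 CPM with H-151 and 3.94, 58.4 and 34.8 CPM with PBS (log2 fold change -0.30 ± 0.79 (SE)). As with Col2a1, the replicate 1 pair was positive and the other two negative. Mmp13, the collagenase of hypertrophic chondrocytes and osteoblasts, was lower with H-151 in each pair, with 432, 441 and 936 CPM with H-151 and 1137, 529 and 1254 CPM with PBS, and passed with the block (log2 fold change -0.69 ± 0.25 (SE)) but not without it (log2 fold change -0.69 ± 0.43 (SE)).

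The promoter of Mmp13 is shown as that of the skeletal gene with the smallest blocked p among those past the unadjusted threshold and with a RefSeq promoter. It spans chr9:7272264-7272563 on the plus strand of GRCm38.p6. Capitals mark its 1 match to the RUNX motif TGTGGT, read on both strands.
Mmp13: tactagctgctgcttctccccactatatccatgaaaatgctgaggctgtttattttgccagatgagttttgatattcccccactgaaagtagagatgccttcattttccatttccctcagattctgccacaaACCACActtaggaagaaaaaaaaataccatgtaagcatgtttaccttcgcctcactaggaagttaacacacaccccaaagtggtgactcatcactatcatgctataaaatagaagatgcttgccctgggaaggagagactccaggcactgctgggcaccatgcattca
The RUNX motif was found for 2 of 6 hypertrophic and 4 of 9 osteoblast list genes with a promoter (33.3% and 44.4%). Of all genes with a promoter 18.9% held it.

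Osteoblast genes had fold changes on either side of 0. Col1a1 gave 30438 ± 3372 CPM (SD, 3 libraries) with H-151 and 33709 ± 5492 CPM with PBS (log2 fold change -0.15 ± 0.27 (SE)), and Runx2, the transcription factor that commits cells to bone, had 86.4, 78.0 and 159.8 CPM with H-151 and 77.4, 83.4 and 162 CPM with PBS (log2 fold change 0.01 ± 0.38 (SE)). Runx2 was highest in both replicate 3 libraries, at nearly the same level in either group. The median over 15 genes was -0.12 and none passed the unadjusted threshold in either model. Bglap2, an osteocalcin gene whose reads may be shared with Bglap, was higher in all 3 pairs, with 366, 406 and 537 CPM with H-151 and 198, 313 and 418 CPM with PBS and a blocked log2 fold change 0.54 ± 0.16 (SE). In the mineralization and osteocyte list Dmp1, a phosphoprotein of osteocytes, had 221, 197 and 429 CPM with H-151 and 107, 178 and 908 CPM with PBS (log2 fold change -0.49 ± 0.79 (SE)), and Phex, which controls phosphate balance, had 38.1, 37.8 and 79.2 CPM with H-151 and 21.5, 34.02 and 131 CPM with PBS (log2 fold change -0.26 ± 0.68 (SE)). PBS replicate 3 was the highest library for both. None of the 8 genes passed in either model, with a median of -0.17 (0.06 with the block).

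Osteoclast genes had fold changes below 0 in 14 of 16, with a median of -0.24 and pair medians of -0.29, -0.54 and 0.04. Ctsk, the collagen-degrading cathepsin K, had 2258, 2257 and 4317 CPM in H-151 replicates 1, 2 and 3 and 3088, 3167 and 4403 CPM in PBS replicates 1, 2 and 3, and Acp5, the enzyme behind TRAP staining, had 1731, 1747 and 3064 CPM with H-151 and 2304, 2503 and 2907 CPM with PBS. H-151 replicates 1 and 2 were below every PBS library for both genes and H-151 replicate 3 was at the level of PBS replicate 3. The values were log2 fold change -0.27 ± 0.32 (SE) for Ctsk and log2 fold change -0.24 ± 0.28 (SE) for Acp5, and no osteoclast gene passed the unadjusted threshold without the block. The median stayed below 0 in every fit, from -0.50 to -0.09. With the block Car2, carbonic anhydrase 2, passed as higher, with 89.5, 126 and 56.97 CPM with H-151 and 22.6, 109.6 and 26.9 CPM with PBS (log2 fold change 1.07 ± 0.33 (SE)). Car2 was lowest in PBS replicates 1 and 3, as were Hba-a1, Slc4a1, Alas2 and Gata1 and unlike Ctsk and Acp5. Which cells its RNA came from was not tested. In 5 of 16 genes the H-151 library was lower in all 3 pairs, against 11.5% of all genes. Tnfsf11, which encodes the osteoclast-inducing cytokine RANKL, was in no list and passed in both models. It had 5.87, 5.90 and 5.52 CPM with H-151 and 24.7, 4.54 and 32.1 CPM with PBS, high in PBS replicates 1 and 3 and near the H-151 level in PBS replicate 2 (log2 fold change -1.82 ± 0.63 (SE), with the block log2 fold change -1.48 ± 0.59 (SE)).

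Scx, the transcription factor of tendon cells, had 18.8, 41.6 and 17.6 CPM with H-151 and 23.5, 25.03 and 20.7 CPM with PBS (log2 fold change 0.17 ± 0.34 (SE)). Tnmd, tenomodulin, had 111, 149.8 and 112 CPM with H-151 and 55.5, 81.7 and 117 CPM with PBS and passed as higher with the block (log2 fold change 0.61 ± 0.23 (SE)), although its replicate 3 pair was near even. The tendon and periosteum list of 7 genes had a median of 0.17.

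Over all lists 2 members were higher and 0 lower past the unadjusted threshold without the block, namely Sox5 and Cd163, against 0.263% and 0.163% of all genes. With the block 44 were higher and 5 lower, against 1.43% and 0.433% of all genes, and 34 of the 44 belonged to the marrow lists. In the plot of list medians by pair, the erythroid, granulocyte, B lineage, adipocyte, mast cell and Schwann cell medians lay above 0 in all 3 pairs. The adipocyte median was only 0.005 in the replicate 2 pair. The marrow stroma, cGAS-STING core, cytokine and endothelial medians lay below 0 in all 3. Of these, marrow stroma was at -0.02 in the replicate 2 pair and cytokines at -0.02 in the replicate 3 pair.

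**Figure D5:**
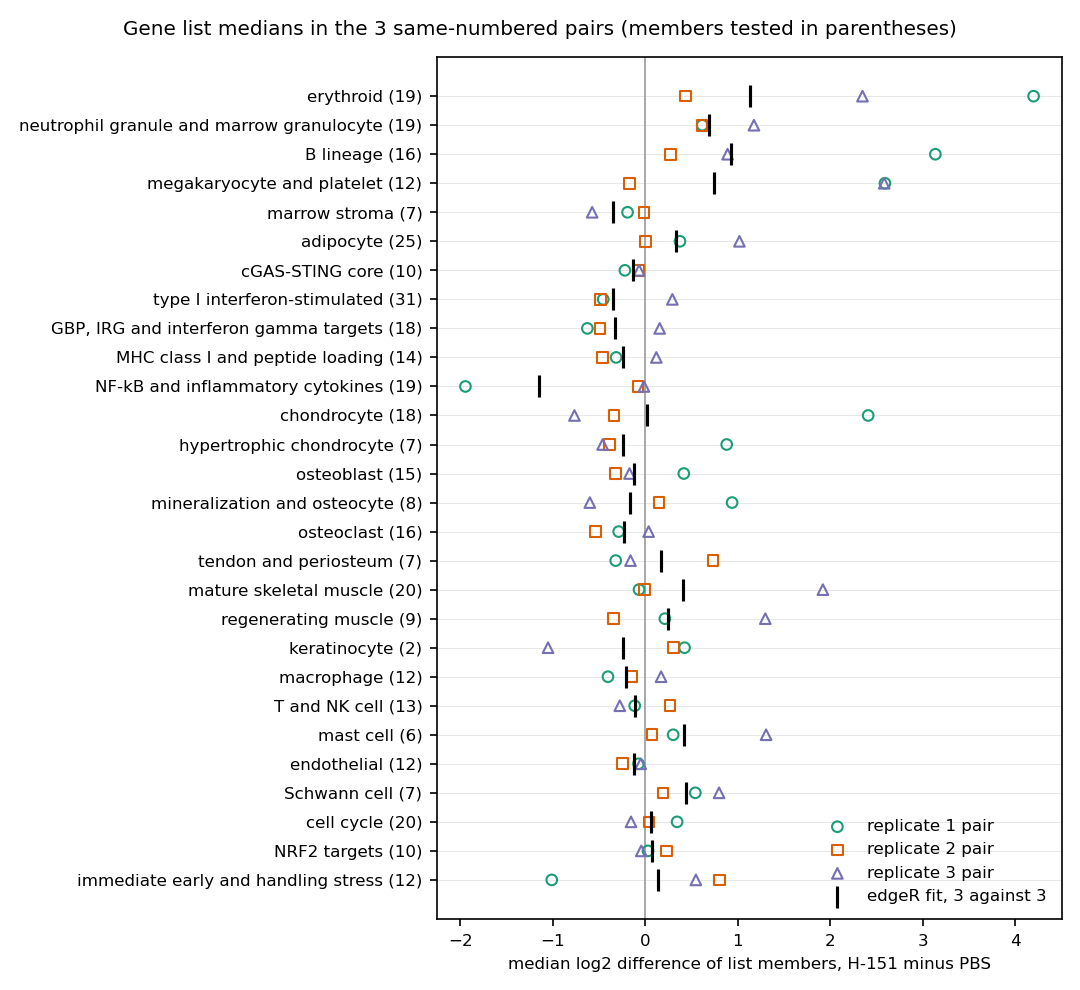
Median log2 difference of the tested members of each list (horizontal axis), H-151 minus PBS, in the replicate 1 (circle), 2 (square) and 3 (triangle) pairs, with the median of the fit of 3 against 3 as a bar. Erythroid medians run from 0.44 to 4.20, the interferon-stimulated gene medians are above 0 in the replicate 3 pair only, and the chondrocyte medians are above 0 in the replicate 1 pair only.

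Markers of the other tissues in callus were read the same way. Mature muscle genes had fold changes above 0 in all 20, with a median of 0.41, or 0.01 without PBS replicate 3, the library with the least muscle RNA. Acta1, skeletal actin, had 3727, 6690.0 and 5377 CPM with H-151 and 3587, 6806 and 1395 CPM with PBS (log2 fold change 0.42 ± 0.55 (SE)) and Ckm, muscle creatine kinase, had 1672, 3186 and 2376 CPM with H-151 and 2005, 3007 and 602 CPM with PBS (log2 fold change 0.37 ± 0.55 (SE)). Neither muscle list had a member past the unadjusted threshold in either model, and the list of regenerating muscle had a median of 0.25. Myh3, the embryonic myosin of regenerating fibres, had 30.7, 27.8 and 32.2 CPM with H-151 and 22.4, 36.98 and 16.3 CPM with PBS, and the myogenic factor Myog had 29.96, 28.99 and 28.9 CPM with H-151 and 23.2, 38.1 and 11.3 CPM with PBS. Macrophage genes had a median of -0.20. Adgre1, which encodes the F4/80 surface protein, had 85.9, 55.8 and 62.9 CPM with H-151 and 122, 62.3 and 53.2 CPM with PBS, and Csf1r, the receptor for the macrophage growth factor, had 339, 272 and 333 CPM with H-151 and 410.5, 393 and 313 CPM with PBS. Cd163, a haemoglobin scavenger receptor of resident macrophages, was the 1 macrophage gene past the unadjusted threshold. It had 2.59, 3.60 and 1.63 CPM in H-151 replicates 1, 2 and 3 and 0.463, 1.80 and 0.740 CPM in PBS replicates 1, 2 and 3 and passed in both models (log2 fold change 1.35 ± 0.56 (SE), with the block log2 fold change 1.46 ± 0.40 (SE)) although PBS replicate 2 overlapped H-151 replicate 3. Without H-151 replicate 1 or 2, or PBS replicate 1 or 3, Cd163 did not pass without the block.

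The keratinocyte list had 2 of 11 genes tested and none past the threshold. The endothelial median was -0.12. Pecam1, an adhesion protein of endothelium, had 353, 314 and 296 CPM with H-151 and 374, 337 and 281 CPM with PBS. Cdh5, the vascular cadherin, had 291, 266 and 262 CPM with H-151 and 304, 342 and 297 CPM with PBS and did not pass (log2 fold change -0.20 ± 0.14 (SE)). It was 1 of 2 among the 12 endothelial genes that lay wholly below PBS, as did 2.28% of all genes. In 5 of the 12 the H-151 library was lower in all 3 pairs, against 11.5% of all genes. Cpa3, a mast cell protease, had 3.19, 3.85 and 3.72 CPM with H-151 and 1.56, 3.21 and 1.48 CPM with PBS and passed as higher with the block only (log2 fold change 0.84 ± 0.31 (SE)), while Mcpt4, another, did not pass in either model (log2 fold change 0.54 ± 0.34 (SE) with the block). The mast cell median was 0.42 and that of T and NK cells -0.11. The T cell genes Cd3e and Cd3d stayed at or below 1.27 CPM throughout, and Nkg7 of cytotoxic cells passed as higher with the block only (log2 fold change 0.61 ± 0.21 (SE)). The Schwann cell list, of 7 genes, had a median of 0.44 with none past the threshold in either model.

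Mki67, a marker of cycling cells, had 135, 131 and 78.2 CPM with H-151 and 78.6, 112 and 62.3 CPM with PBS (log2 fold change 0.45 ± 0.29 (SE)), and Top2a, which untangles DNA before division, had 60.4, 63.7 and 56.9 CPM with H-151 and 65.2, 56.9 and 52.6 CPM with PBS (log2 fold change 0.05 ± 0.13 (SE)). The cell cycle median was 0.06 and that of NRF2 targets, which would respond to reactive compounds, was 0.07. Nqo1, a quinone reductase, had 7.86, 9.25 and 5.07 CPM with H-151 and 5.27, 7.76 and 6.89 CPM with PBS, and the haem oxygenase gene Hmox1 had 165, 173 and 89.0 CPM with H-151 and 198, 136 and 154 CPM with PBS. No gene of the cell cycle or NRF2 list passed in either model. The immediate early and stress genes had a median of 0.14. Fos, an immediate early gene that responds quickly to stimuli, had 37.5, 56.8 and 40.96 CPM with H-151 and 70.1, 25.97 and 26.6 CPM with PBS, and its relative Fosb had 6.27, 40.1 and 6.14 CPM with H-151 and 26.7, 3.17 and 3.53 CPM with PBS. PBS replicate 1 and H-151 replicate 2 were the highest libraries for both. The heat shock gene Hspa1b, whose reads may be shared with Hspa1a, had 4.48, 8.85 and 4.68 CPM with H-151 and 21.6, 23.1 and 4.27 CPM with PBS and passed as lower with the block only (log2 fold change -1.22 ± 0.46 (SE)).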

How the data were processed

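RNA-seq was measured in 3 H-151 and 3 PBS callus libraries. The authors deposited 1 table of expected counts per gene for all 9 libraries, of which 3168 of 22054 genes held a value that was not whole. The aligner and the counting tool are not given in the sources used here, and the submitters' processing notes name the mm10 build. The labels describe poly(A) selection and a strand-specific library, while the strand setting of the counting is not stated, so overlapping antisense genes cannot be told apart. The extraction text in the labels speaks of cell lines although the tissue label is bone. The authors' TPM columns, deposited beside the counts, were used for no test and no printed value, and how they were made is not stated.

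Expected counts were rounded to whole numbers, filtered with edgeR's filterByExpr (14085 genes kept), scaled by TMM and tested with edgeR 4.0.16 (quasi-likelihood, R 4.3.3) on H-151 against PBS. DESeq2 1.42.0 was an alternative. Depth ran from 16987398 to 23272480 counts, and a common coefficient of variation of 0.296 between libraries limits the precision. The design had assumed whole counts. The scripts were tested on simulated data.

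Libraries were taken by their labels and all comparisons were 3 against 3. Deviations from group means correlated at 0.31, 0.50 and 0.51 over genes for same-numbered libraries and at −0.40 to 0.03 for the others. This check used the same values that the block was fitted to, and deviations from a group mean cancel out. It therefore cannot show that the numbers mark true pairs, and the block was fitted as an alternative only. The pairing comes from the labels' biosample numbers, and the labels do not say what a number marks. A chi-square of the counts gave at least 25.8 per gene for each of 15 pairs of libraries, so none was a duplicate. Named genes were the pathway genes Sting1, Cgas, Tbk1 and Irf3, up to 10 genes per direction with the smallest p among those past the unadjusted threshold whose groups did not overlap, and, for each list, its first 2 genes and its members past the unadjusted threshold without the block. Members and lists were chosen with earlier results of these data known. A few genes are not reported here. Promoters came from RefSeq (GRCm38.p6). Alternatives were other normalization, filters, tool, block, all 9 libraries and leaving out each library.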

Additional observations from a re-analysis of the deposited data

How the results depend on the processing

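The numbers of genes past the unadjusted threshold (37 higher and 23 lower with edgeR and without a block) depended strongly on the block and on single libraries, and the cause was not tested. With the replicate block, which uses the pairing of same-numbered libraries, edgeR gave 201 higher and 61 lower genes and 44 higher and 5 lower list members, against 2 and 0 without it. DESeq2 without the block gave 44 higher and 39 lower genes and 3 higher and 5 lower list members, and with the block it gave 11 genes at an adjusted p under 0.05 (547 genes had no adjusted p), 244 higher and 58 lower genes, and 65 and 8 list members. DESeq2 with the block and the fits leaving out a pair were chosen after seeing the data. Without a filter on low counts 89 genes were higher and 38 lower, with 3 list members lower. With a mean count of at least 50 there were 17 and 11, with 1 list member higher.

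Leaving out each library in turn, or each same-numbered pair with the block, gave 30 to 482 higher and 13 to 216 lower genes, with 1 to 70 higher and 0 to 37 lower list members. The most genes came without PBS replicate 2, and the most lower list members without the replicate 3 pair. Il1b ran from a log2 fold change of -2.48 without H-151 replicate 1 to 1.98 without PBS replicate 1, and was 0.88 without the replicate 1 pair in the blocked fit. With DESeq2 size factors in edgeR all 163 values compared were classed as the same as in the plain comparison. Not all of these values were threshold calls. The blocked fit changed the call of 15 named values, 13 of which came to pass and 2 of which no longer did. With 3 libraries a side and this spread no adjusted call was made by edgeR in any of these fits.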

Other observations

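Over all tested genes, 201 genes were higher and 61 lower past the unadjusted threshold with the replicate block, list members included, and none passed an adjusted p of 0.05 by edgeR. The few named here, which are in no gene list, were chosen after their values were seen and do not stand for the rest. Slfn4, a myeloid gene of the schlafen family, had the largest drop in relation to its error, with 75.5, 19.7 and 16.4 CPM with H-151 and 208, 45.5 and 31.03 CPM with PBS (log2 fold change -1.20 ± 0.14 (SE) with the block). Each H-151 library was below its PBS partner, and the level differed between replicate numbers. It was 1 of the 11 genes called by DESeq2 with the block. Itgb2l, an integrin subunit gene of granulocytes, had 30.8, 31.6 and 5.75 CPM with H-151 and 15.3, 16.7 and 2.05 CPM with PBS (log2 fold change 1.103 ± 0.18 (SE) with the block). Prg2, the major basic protein of eosinophils, had 4.98, 15.2 and 1.47 CPM with H-151 and 1.04, 5.61 and 1.08 CPM with PBS, and Mcpt8, a basophil protease, had 4.78, 5.85 and 2.20 CPM with H-151 and 1.74, 3.60 and 0.683 CPM with PBS. Ikzf1, a transcription factor of blood cells, had 46.1, 49.3 and 17.98 CPM with H-151 and 31.8, 34.8 and 9.74 CPM with PBS. All 4 genes were higher with H-151 in each pair.

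Mup22 and Cyp2e1, genes best known from liver, were also higher in each pair. Mup22, one of a family of near-identical genes whose reads may be shared, had 7.17, 22.2 and 8.51 CPM with H-151 and 2.55, 10.2 and 2.05 CPM with PBS (log2 fold change 1.52 ± 0.24 (SE) with the block), and Cyp2e1, a cytochrome P450 that fat cells also make, had 2.94, 9.65 and 2.54 CPM with H-151 and 0.811, 4.46 and 0.456 CPM with PBS (log2 fold change 1.69 ± 0.34 (SE) with the block). Both were highest in the replicate 2 libraries of either group, as were Adipoq and Cfd. Among genes lower with H-151, Lama1, a laminin chain, had 1.24, 0.750 and 0.451 CPM with H-151 and 6.89, 2.06 and 1.08 CPM with PBS and also passed without the block (log2 fold change -2.02 ± 0.75 (SE)). The clock genes Per2 and Ciart were lower in each pair, with 4.48, 6.50 and 3.38 CPM with H-151 and 6.20, 9.90 and 5.87 CPM with PBS for Per2 and 1.89, 0.550 and 0.676 CPM with H-151 and 3.19, 1.20 and 1.54 CPM with PBS for Ciart, both past the unadjusted threshold with the block only.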
